A study of Homo sapiens with 6 samples.

Results

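The genes examined here were the WNT ligands, their Frizzled receptors and co-receptors, and the secreted and intracellular genes that limit or carry out WNT signalling, in adriamycin-resistant (ADRr) and parent MDA-MB-231 cells. They were chosen by name, as the protein-coding WNT, FZD, DKK, SFRP and RSPO genes together with LRP5, LRP6, ROR1, ROR2, RYK, AXIN2, LEF1, TCF7, TCF7L2, NKD1 and NKD2, which gave 52 of the 58735 genes in the count table. MDA-MB-231 is an established triple-negative breast cancer cell line, and adriamycin (doxorubicin) is an anthracycline that poisons topoisomerase II. The parent group (genotype WT in the labels) and the ADR resistant group had 3 polyA RNA-seq libraries each, and both groups carry the line's own mutations. Per the study's methods, ADRr cells were selected in rising doses of adriamycin and cloned by limiting dilution, so the differences are those between 1 cloned resistant line and its source. The dose in which ADRr cells grew at harvest is not given in the sources used here. Nothing in the labels says that the libraries of a group came from separate cultures, and the series record mentions time points that no sample label names, so p-values measure the spread between these libraries only. The counts come from whole cultures, in which fewer cells expressing a gene and less RNA per cell cannot be told apart.

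WNT proteins are lipid-modified secreted ligands that bind a Frizzled receptor together with a co-receptor. With LRP5 or LRP6 the signal stabilises β-catenin, which enters the nucleus and works with TCF and LEF factors on target genes such as AXIN2. With ROR1, ROR2 or RYK the signal runs through β-catenin-independent branches that control cell polarity and movement. Dickkopf (DKK) proteins bind the LRP co-receptors, secreted Frizzled-related proteins (SFRP) bind the ligands, and R-spondins (RSPO) protect Frizzleds and LRPs from removal at the cell surface. In breast cancer the pathway is studied for its links to stem-like cells and to invasion.

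Total counts ranged from 15983985 to 18272314 per library, so that a gene at 0 could still hold 3 counts (0.164 to 0.188 CPM, counts scaled to library size), a limit for counting error only. Of the 4 genes set as low in this line, ESR1 and PGR had at most 1 count in any library, whereas ERBB2 (882 to 2303 counts) and CDH1 (108 to 259 counts) were detected in every library, and the 4 summed to 128 to 142 CPM in parent cells and 55.5 to 62.6 CPM in ADRr cells. VIM, CD44, KRT18, KRT8, CAV1 and AXL were set as high in this line. Together they held 4839 to 4936 CPM in parent cells and 3657 to 3693 CPM in ADRr cells. CD44 was higher in ADRr cells and the others of this list were lower. All 6 leukocyte markers stayed under 1 CPM in every library. The fibroblast markers summed to 161 to 164 CPM in parent cells and 28.8 to 32.2 in ADRr cells, with DCN at 0 throughout, and the endothelial markers to 3.13 to 4.88 and 8.48 to 9.48. Whether these shifts bear on the results below was not tested. Genes were compared with edgeR's quasi-likelihood test across all genes, and a gene was called higher or lower when its Benjamini-Hochberg adjusted p did not exceed 0.05 and its fold change reached 1.2 (0.263 on the log2 scale). By this rule 58.8% of the 15242 tested genes were called, 29.2% higher and 29.6% lower in ADRr cells. Values per library are normalised read counts, that is, counts scaled by library total and TMM factor, with libraries given in replicate order.

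Of the 52 genes, 25 passed the filter on low counts and 27 did not. Among the 25, 6 were called higher in ADRr cells (WNT9A, WNT4, DKK3, FZD4, TCF7L2 and RYK), 13 were called lower (LRP5, LRP6, FZD6, FZD1, FZD7, FZD2, AXIN2, WNT2B, WNT7B, WNT10A, WNT3, DKK1 and ROR1), and 6 were not called (WNT5B, WNT10B, FZD3, FZD5, FZD8 and TCF7). The called share was thus 76% of the tested members beside 58.8% of all tested genes. The groups of libraries did not overlap for these same 19 called genes, 6 with ADRr libraries above and 13 below, beside 69.2% of all tested genes (34.5% above and 34.7% below). The median log2 fold change of the 25 was -0.28, beside -0.01 over all tested genes. Each of the 25 reached at least 10 counts in a library of both groups. WNT4 did so in parent replicate 1 alone among parent libraries, so it passed the filter through its ADRr libraries, in which it was high. It was not tested when at least 10 counts were required in every library. The numbers of called genes describe the expressed genes of the module and are no test of the module as a whole. The plot of fold changes by role shows the 3 largest increases above 1 on the log2 scale and the lower calls spread over ligands, receptors and co-receptors.

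**Figure D1:**
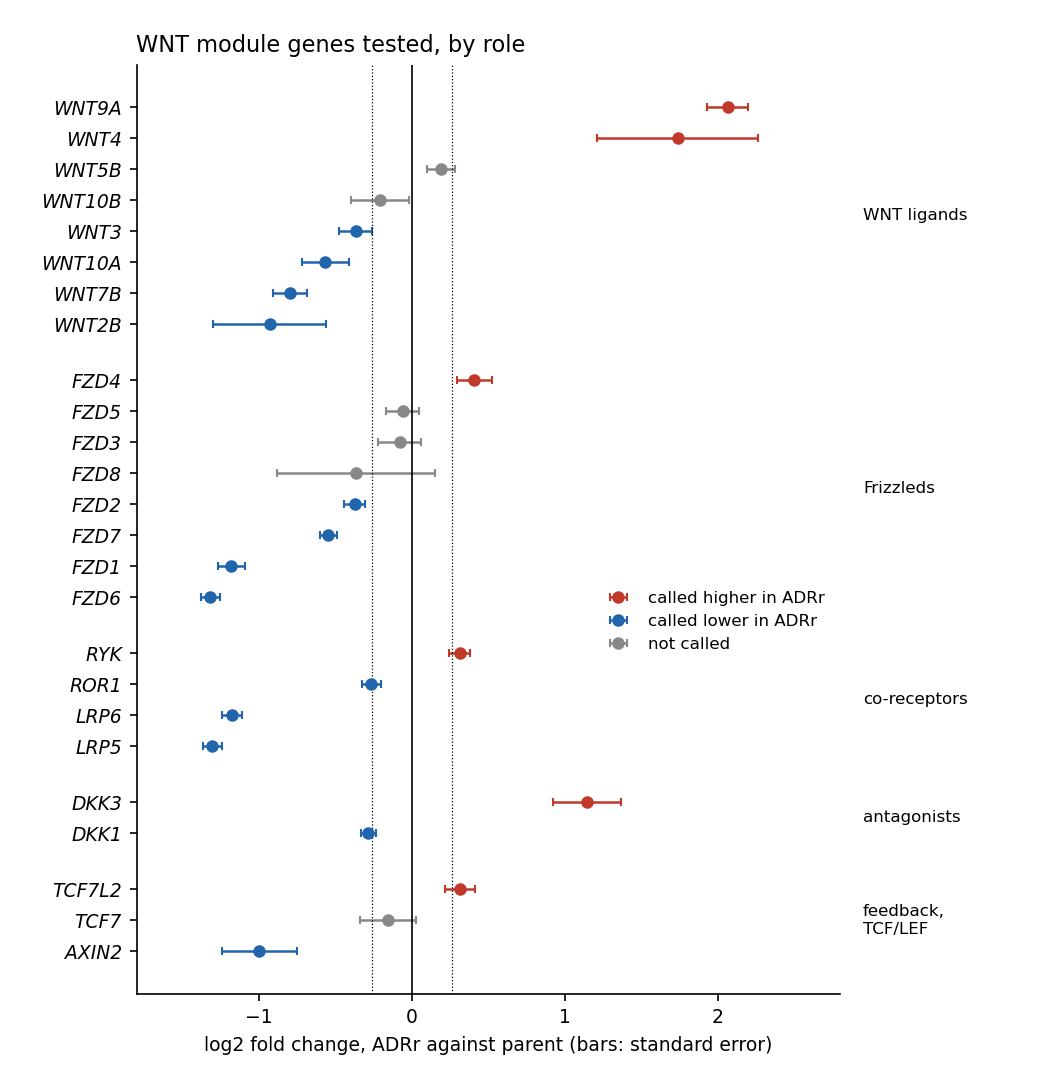
Log2 fold change (ADRr against parent, edgeR) of the 25 tested genes, ordered within roles, with bars for the standard error, dotted lines at 0.263 in either direction, and red, blue and grey points for genes called higher, lower and not called. WNT9A (2.07) and WNT4 (1.74) lie farthest to the right, and FZD6 (-1.32), LRP5 (-1.30), FZD1 (-1.18) and LRP6 (-1.18) farthest to the left.

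Among the 19 WNT ligands, 8 were tested, of which 2 were called higher and 4 lower (75%, beside 58.8% of all tested genes). WNT9A, a ligand with known roles in joint formation and blood stem cells, had the largest increase of all tested members. WNT9A (ENSG00000143816, GRCh38, chromosome 1, 227918656 to 227947898) had 69.9, 100 and 90.5 normalised read counts in the parent libraries and 367, 393 and 333 in the ADRr libraries. All ADRr libraries lay far above all parent libraries. The log2 fold change was 2.07 ± 0.13 (SE, edgeR adjusted p = 4.2e-12), a 4.19-fold difference. WNT4, a ligand needed for side-branching of the mammary gland, was scarce in both groups, with 11, 1 and 4 counts in parent libraries and 23, 17 and 17 in ADRr libraries. It was called higher with a log2 fold change of 1.74 ± 0.52 (SE, edgeR adjusted p = 0.0059). Its ADRr libraries carried it past the filter on low counts, so this call rests on the group in which it was high. Parent replicate 1 holds most of its parent counts, and without that library the value was 2.79, while it was 1.28 without parent replicate 2. Its exons share 55 bases with AL445253.1 on the opposite strand, which had 35 counts over the 6 libraries.

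The ligands called lower were WNT7B, WNT3, WNT10A and WNT2B. WNT7B, which signals in lung and vessel development, had 356, 288 and 360 normalised read counts in parent libraries and 208, 185 and 185 in ADRr libraries. Its groups did not overlap, and its log2 fold change was -0.80 ± 0.11 (SE, edgeR adjusted p = 1.7e-06). WNT3, a ligand of gastrulation and limb growth that acts through β-catenin, had 232, 258 and 261 normalised read counts in parent libraries and 192, 195 and 195 in ADRr libraries. Its log2 fold change of -0.37 ± 0.11 (SE, edgeR adjusted p = 0.0053) was one of the smaller changes called. WNT10A, a ligand of tooth and skin appendage growth, had means of 136 ± 8.48 and 91.9 ± 10.1 normalised read counts (SD, n = 3 each) and a log2 fold change of -0.57. WNT2B had only 10 to 25 counts in any library and a log2 fold change of -0.93 (adjusted p = 0.031 from edgeR). Its call was lost without parent replicate 2 (-0.83, adjusted p = 0.089), without parent replicate 3 (-0.91, adjusted p = 0.079), without ADRr replicate 1 (-0.76, adjusted p = 0.13) and without ADRr replicate 2 (-0.94, adjusted p = 0.072). Of its 12561 annotated exonic bases, 2661 also belong to exons of ST7L on the opposite strand, and the counting strand is not given in the sources used here.

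WNT5B, a ligand best known for signalling without β-catenin, was the most abundant ligand per gene length in both groups. Its values are given in full, although it was not called, because it led the ligands. It had 557, 547 and 608 normalised read counts in parent libraries and 671, 727 and 561 in ADRr libraries. The groups overlapped through ADRr replicate 3, and the log2 fold change of 0.19 ± 0.090 (SE, edgeR adjusted p = 0.065) was not called. Without ADRr replicate 3 it was 0.29 (adjusted p = 0.010) and was called higher. WNT10B, at 92.3 ± 19.9 and 80.1 ± 8.90 normalised read counts, was not called either (log2 fold change -0.21, adjusted p = 0.34). WNT5A, the closest relative of WNT5B, had at most 4 counts in any library, and WNT3A, the ligand most used to switch on the β-catenin branch in culture, at most 7.

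The other untested ligands were near or at the floor. WNT11 had at most 12 counts in any library, WNT8B at most 6, WNT2 at most 5 and WNT1 at most 2, and WNT6, WNT7A, WNT8A, WNT9B and WNT16 were at 0 in all 6 libraries. Of the members, 4 pairs of WNT genes lie side by side in the genome, and in each pair nearly all reads fell on 1 member. On chromosome 1, WNT9A (68 to 386 counts) lies 59153 bases from WNT3A (1 to 7 counts). On chromosome 12, WNT10B (65 to 112 counts) lies 6690 bases from WNT1 (0 to 2 counts). On chromosome 2, WNT10A (89 to 147 counts) lies 6130 bases from WNT6 (0 counts), and on chromosome 17, WNT3 (187 to 268 counts) lies 47 bases from WNT9B (0 counts). The increase of WNT9A was thus measured in a pair whose other gene stayed at or below 3 counts in each ADRr library.

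Compared per gene length in FPKM (reads scaled by gene length and library size, as deposited), the summed level of the 19 ligands was 20.8 ± 1.32 in parent cells and 22.7 ± 1.69 in ADRr cells (SD, n = 3 each). The libraries of the groups overlapped, from 19.5 to 22.2 and from 20.9 to 24.3, while the makeup of the sum differed. WNT9A supplied 6.06 ± 1.27% of the summed ligand FPKM in parent cells and 23.2 ± 0.132% in ADRr cells. The share of WNT7B was 18.2 ± 1.44% and 9.68 ± 0.913%, that of WNT3 15.96 ± 1.32% and 11.4 ± 0.901%, and that of WNT10A 10.96 ± 0.240% and 6.82 ± 0.517%. WNT5B held 36.5 ± 0.594% and 38.3 ± 2.10%, so the leading ligand was the same in both groups and WNT9A moved from the sixth place to the second.

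The Frizzleds are the seven-pass receptors that bind the ligands, and 8 of the 10 were tested. Of these, 62.5% were called, beside 58.8% of all tested genes. FZD6, FZD1, FZD7 and FZD2 were called lower and FZD4 was called higher, so all 4 of the Frizzleds with the highest FPKM in parent cells were lower in ADRr cells. FZD6, a receptor tied to hair patterning and to restraint of β-catenin signalling, had 2084, 2088 and 1939 normalised read counts in parent libraries and 851, 784 and 817 in ADRr libraries. No ADRr library came near a parent library, and the log2 fold change was -1.32 ± 0.062 (SE, edgeR adjusted p = 2.1e-14). FZD1, FZD2 and FZD7 form the closest group of Frizzleds by sequence. FZD1 had 702, 698 and 757 normalised read counts in parent libraries and 342, 335 and 276 in ADRr libraries, a log2 fold change of -1.18 ± 0.091 (SE, edgeR adjusted p = 1.2e-10). FZD7, a Frizzled studied in triple-negative breast cancer, had 2460, 2436 and 2593 normalised read counts in parent libraries and 1702, 1748 and 1678 in ADRr libraries, a log2 fold change of -0.55 ± 0.055 (SE, edgeR adjusted p = 9.1e-09). FZD2 had 1344, 1255 and 1494 normalised read counts in parent libraries and 1081, 1072 and 1013 in ADRr libraries, and changed by -0.37 ± 0.069 (SE, edgeR adjusted p = 5.8e-05). Each of the 3 was lower in every ADRr library than in every parent library.

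FZD4, the receptor for the non-WNT ligand norrin as well as for WNTs, had 219, 185 and 175 normalised read counts in parent libraries and 247, 271 and 251 in ADRr libraries. It was called higher, with a log2 difference of 0.41 ± 0.12 (SE, edgeR adjusted p = 0.0036). Of its 7383 exonic bases, 1399 overlap exons of PRSS23 on the opposite strand, a gene with 34121 counts over the 6 libraries that was called lower (-0.95), and the share of FZD4 counts that this overlap touches was not tested. FZD3 (150 ± 19.6 and 142 ± 5.25 normalised read counts), FZD5 (255 ± 27.0 and 245 ± 3.65) and FZD8 (14.1 ± 10.4 and 11.04 ± 1.37) were not called, with log2 fold changes of -0.08, -0.06 and -0.36. FZD8 had only 2 counts in parent replicate 2. FZD9 had at most 5 counts in any library and FZD10 had none.

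The summed FPKM of the Frizzleds was 113 ± 3.39 in parent cells and 73.1 ± 1.602 in ADRr cells (SD, n = 3 each), with all ADRr libraries (71.3 to 74.4) under all parent libraries (110 to 116). FZD2 and FZD7 supplied most of the sum in both groups. The share of FZD2 was 32.6 ± 1.89% in parent cells and 39.2 ± 0.455% in ADRr cells, and that of FZD7 was 32.7 ± 0.420% and 34.8 ± 0.633%. The share of FZD6 was 25.4 ± 1.77% and 15.8 ± 0.703%. The share of FZD4 was 1.32 ± 0.168% and 2.73 ± 0.133%.

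LRP5 and LRP6, the co-receptors of the β-catenin branch, both fell in ADRr cells. LRP5 (ENSG00000162337, GRCh38, chromosome 11, 68312609 to 68449275) had 5718, 4915 and 5887 normalised read counts in parent libraries and 2260, 2254 and 2176 in ADRr libraries. Its log2 fold change was -1.30 ± 0.061 (SE, edgeR adjusted p = 1.6e-14), a 2.47-fold difference. LRP6 (ENSG00000070018, GRCh38, chromosome 12, 12116025 to 12267012) had 1507, 1531 and 1409 normalised read counts in parent libraries and 663, 660 and 642 in ADRr libraries. Its log2 fold change was -1.18 ± 0.066 (SE, edgeR adjusted p = 3.8e-13), a 2.26-fold difference. For both genes the ADRr libraries were closely grouped and lay below every parent library. In FPKM, LRP5 made up 86.1 ± 1.61% of the sum of both in parent cells and 85.1 ± 0.0424% in ADRr cells (SD, n = 3 each), and the sum itself was 59.3 ± 4.57 and 24.4 ± 0.452.

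The co-receptors of the other branches had smaller log2 differences. ROR1, a receptor tyrosine kinase that binds WNT5A and is used as an antigen in breast cancer, had 1434, 1539 and 1398 normalised read counts in parent libraries and 1243, 1157 and 1237 in ADRr libraries. The groups did not overlap, and the log2 fold change of -0.26 ± 0.062 (SE, edgeR adjusted p = 7.7e-04) stood just past the fold change threshold. It was short of that threshold without parent replicate 2 (-0.23) and without ADRr replicate 2 (-0.23), and with the other scalings and tests given at the end. RYK, a WNT receptor with an inactive kinase domain, had 797, 883 and 842 normalised read counts in parent libraries and 992, 1035 and 1106 in ADRr libraries. It rose by 0.31 ± 0.070 (SE, edgeR adjusted p = 4.3e-04), with every ADRr library above every parent library. ROR2 had at most 8 counts in any library.

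Of the secreted antagonists only DKK1 and DKK3 were tested. DKK1, which blocks LRP5 and LRP6 and is itself a target of β-catenin, was by far the most abundant member, at 244 ± 8.08 FPKM in parent cells and 201 ± 9.01 in ADRr cells (SD, n = 3 each). It ranked 78th among protein-coding genes by mean FPKM in parent cells and 109th in ADRr cells. DKK1 (ENSG00000107984, GRCh38, chromosome 10, 52314296 to 52318042) had 9072, 9727 and 9370 normalised read counts in parent libraries and 7873, 7975 and 7297 in ADRr libraries. The groups did not overlap, and the log2 fold change was -0.28 ± 0.049 (SE, edgeR adjusted p = 2.6e-05), a 1.22-fold difference. Without ADRr replicate 3 the value of -0.25 fell short of the fold change threshold. DKK3, a distant relative that does not act as a classical LRP blocker, had 77.1, 41.1 and 49.6 normalised read counts in parent libraries and 98.8, 113 and 159 in ADRr libraries. It rose by 1.14 ± 0.22 (SE, edgeR adjusted p = 1.0e-04), and the lowest ADRr library lay above the highest parent library. DKK2, DKK4, SFRP1 and SFRP2 had no counts, SFRP4 at most 6 and SFRP5 at most 7. None of the 4 R-spondins was tested, with RSPO1 and RSPO4 at 0, RSPO2 at no more than 1 count and RSPO3 at no more than 3.

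TCF and LEF factors bind DNA at sites such as CTTTGAT and CTTTGAA. RefSeq promoters (GRCh38.p14, 300 bases, from 250 before to 50 after a gene's start) were matched for 36 of the 52 members, with 42 starts, and were searched on both strands for CTTTGAT and CTTTGAA, which do not overlap each other. Other forms of the site were not searched. CTTTGAT stood in 2.62% and CTTTGAA in 4.43% of the 35116 promoters of the table, and either of them in 6.86%. A single promoter of the 42 of the members (2.38%) held either of them. It was that of DKK1, with CTTTGAA on the strand of the gene 95 bases before the start. This promoter is shown because no other promoter of the members held a match. DKK1 is also the most abundant member and a target of the pathway it blocks. The stretch shown lies at chr10:52314031-52314330 on the plus strand. The capitals mark the match, which is a match of letters and not a measured binding site.
DKK1 promoter: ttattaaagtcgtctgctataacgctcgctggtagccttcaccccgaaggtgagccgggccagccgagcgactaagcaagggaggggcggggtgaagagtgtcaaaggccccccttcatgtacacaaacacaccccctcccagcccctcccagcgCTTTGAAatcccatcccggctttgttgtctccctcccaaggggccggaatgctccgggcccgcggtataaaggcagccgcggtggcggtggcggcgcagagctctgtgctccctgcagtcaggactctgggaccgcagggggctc

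Among the intracellular genes, AXIN2 and LEF1, which the pathway itself switches on, were scarce in parent cells and lower in ADRr cells. Their counts are given in full because of that role, a choice made after the values were seen. AXIN2, a scaffold of the complex that degrades β-catenin and the most widely used readout of the pathway, had 59, 56 and 56 counts in parent libraries and 28, 32 and 30 in ADRr libraries. Its log2 fold change was -0.996 ± 0.25 (SE, edgeR adjusted p = 0.0011), and the groups did not overlap. LEF1 had 10, 7 and 16 counts in parent libraries and 0, 3 and 1 in ADRr libraries and did not pass the filter. When 1 library was left out, it was tested and called lower in 4 of 6 fits, in which only its parent libraries let it pass the filter. Against a floor of 3 counts per library it was at least 3.80-fold lower in ADRr cells, with every ADRr library below every parent library. TCF7L2, the main TCF factor of epithelial cells, had 296, 336 and 300 normalised read counts in parent libraries and 365, 371 and 423 in ADRr libraries. It rose by 0.32 ± 0.098 (SE, edgeR adjusted p = 0.0068), and without ADRr replicate 3 the value was 0.25 (adjusted p = 0.059) and no longer called. TCF7 (88.8 ± 4.06 and 79.7 ± 13.5 normalised read counts) was not called, at -0.16. NKD1, a Dishevelled-binding inhibitor, had at most 4 counts in any library and NKD2 had none.

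The place of a gene on its chromosome was described by the median log2 fold change of the 50 nearest tested genes. TCF7L2 lies where this median was 0.59 and 34 of the 50 neighbours were called higher, beside 29.2% of all tested genes. Its own 0.32 was thus below that of its surroundings. ROR1 (-0.26) lies among genes with a median of -0.31, of which 21 were called lower, beside 29.6% of all tested genes. FZD6 (-1.32) has neighbours with a median of -0.34 and LRP6 (-1.18) neighbours with a median of -0.19, and both lay far below them. The neighbours of WNT9A had a median of 0.13, those of FZD1 0.15, those of LRP5 -0.04 and those of AXIN2 -0.0010. The plot against neighbours shows most members with surroundings near 0.

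The other genes of the pathway were taken from a list of 118 that are not members, of which 94 were tested. In ADRr cells 30 of them were called higher and 29 lower (62.8%, beside 58.8% of all tested genes), with a median log2 fold change of 0.02. CTNNB1, which encodes β-catenin and is named here after its values were seen, had 7335, 7516 and 7091 normalised read counts in parent libraries and 3620, 3753 and 3553 in ADRr libraries. Its log2 difference was -1.01 ± 0.049 (SE, edgeR adjusted p = 3.3e-14), with no overlap between groups. On chromosome 3 it starts at 41194741, between WNT7A and WNT5A. The 50 tested genes nearest to each of these had medians of -0.41 and -0.61. Of them, 27 and 33 were called lower, beside 29.6% of all tested genes. Whether its own surroundings bear on CTNNB1 was not tested. The 13 genes of the β-catenin destruction complex and its regulators were all tested. Of these, 4 were called higher (AXIN1, AMER1, TNKS and TNKS2, by 0.34 to 0.53). The called share was 30.8%, beside 58.8% of all tested genes, of which 29.2% were called higher. The other 9 were not called, among them APC (0.07), GSK3A (0.04) and GSK3B (-0.17).

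The largest decreases in this list were those of SOST, CELSR2, PTK7 and TSPAN12. SOST encodes sclerostin, which blocks LRP5 and LRP6 in bone, and it had 318, 296 and 350 counts in parent libraries and 31, 18 and 18 in ADRr libraries, a log2 fold change of -3.91 ± 0.17 (SE, edgeR adjusted p = 4.9e-15). CELSR2, a cadherin of planar polarity, fell by 2.15, PTK7, a pseudokinase co-receptor, fell by 2.07, and TSPAN12, which helps norrin signal through FZD4, fell by 2.02. The planar polarity and calcium list had 24 tested genes, with 6 called higher and 9 lower (62.5%, beside 58.8% of all tested genes). Those lower included PRICKLE2 (-1.45), VANGL1 (-1.07) and DAAM1 (-0.97), and those higher ROCK2 (0.86), NFATC2 (0.81) and RHOU (0.77). The 4 largest increases were those of FRZB, DRAXIN, TCF7L1 and USP6, all with fewer than 20 counts in every parent library. FRZB, a Frizzled-related antagonist outside the SFRP names, had 7, 9 and 2 counts in parent libraries and 46, 32 and 38 in ADRr libraries (log2 fold change 2.58, SE 0.42, edgeR adjusted p = 1.2e-05). FRZB and DRAXIN had under 10 counts in every parent library, while TCF7L1 and USP6 reached 10 counts in parent replicate 1 alone. All 4 thus passed the filter through their ADRr libraries, and their place among tested genes rests on the group in which they were high. DRAXIN, a secreted LRP6-binding guidance factor, rose by 2.41, and TCF7L1, a mostly repressive TCF factor, by 2.30, from 18, 8 and 9 counts to 70, 49 and 64. USP6, a deubiquitinase that returns Frizzleds to the surface, rose by 2.12 and is read with caution, since its sequence is shared in large part with USP32. Of the 8 tested genes among the other antagonists, 5 were called higher (FRZB, DRAXIN, SHISA2, TPBG and TRABD2A) and 1, SOST, lower, beside 29.2% higher and 29.6% lower over all tested genes. The 5 include FRZB and DRAXIN, which were tested only because of the group in which they were high. This number is therefore not read as an excess over the share of all tested genes. With at least 10 counts required in every library, 26 rather than 30 of the other pathway genes were called higher.

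Of the genes that serve ligand release and receptor turnover, WLS, the carrier of WNTs to the cell surface, changed by -0.34 and was called lower, and PORCN, the enzyme that attaches their lipid, changed by -0.12 and was not. LGR4, the R-spondin receptor, fell by 1.40, from 769 ± 65.4 to 292 ± 33.1 normalised read counts, and RNF43, a ligase that removes Frizzleds and is induced by the pathway, fell by 0.58. ZNRF3, its partner, was at 0.01 and not called. These 5 genes were picked for their roles after the values were seen. Of the 5 tested receptor turnover genes, 2 were called higher (NEDD4L and USP6) and 2 lower (80%, beside 58.8% of all tested genes). USP6 passed the filter through its ADRr libraries. NEDD4L, also named after its values were seen, rose by 1.87 ± 0.048 (SE, edgeR adjusted p = 4.4e-19). Its mean went from 3278 to 11958 normalised read counts. Of the 4 tested genes of secretion and processing, 3 were called lower (75%).

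The list of 46 genes widely used as targets of β-catenin and TCF factors had 29 tested genes, of which 8 were called higher and 13 lower (72.4%, beside the same 58.8%), with a median log2 fold change of -0.24. Many of these genes also answer to other pathways. The largest decreases were those of ID2 (-2.91), an inhibitor of differentiation factors, BMP4 (-2.23), a growth factor, FST (-2.21), an activin antagonist, and SP5 (-2.07), a transcription factor that is among the most direct β-catenin targets. SP5 had 119, 98 and 153 counts in parent libraries and 40, 22 and 30 in ADRr libraries, with no overlap. TNFRSF19, another direct target, fell by 1.88. The largest increases were those of VEGFA (2.42), CLDN1 (2.35), JAG1 (1.43) and L1CAM (1.18), which encode an angiogenic factor, a tight junction protein, a Notch ligand and an adhesion molecule. MYC rose by 0.95 and CD44 by 0.80. These and the other targets below the 4 largest changes in each direction are named after their values were seen, as are the examples above from the destruction complex, the planar polarity list and the other antagonists. CCND1 (-0.26), JUN (0.24) and SNAI2 (-0.24) had fold changes under the threshold, and SOX9 changed by 0.05.

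**Figure D2:**
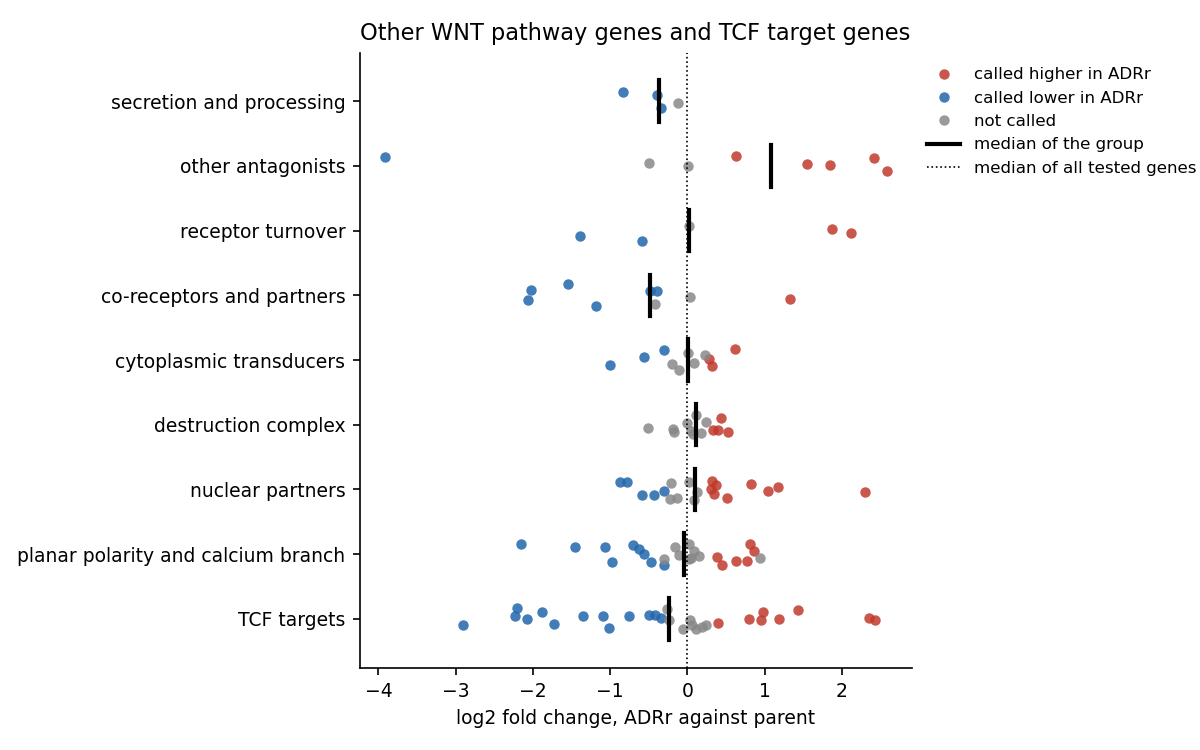
Log2 fold change (ADRr against parent, edgeR) of the tested genes in 8 groups of other pathway genes and in the target list, 1 point per gene (red called higher, blue called lower, grey not called), with a black bar at each group's median and a dotted line at the median of all tested genes (-0.01). SOST (-3.91) is the point farthest to the left and FRZB (2.58) that farthest to the right, both among the other antagonists.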

How the data were processed

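RNA from 3 parent and 3 ADRr libraries was analysed from the deposited tables. Per the study's methods and the submitters' processing notes, polyA RNA was made into CORALL libraries, sequenced as paired-end reads, mapped to GRCh38 with HISAT2 2.0.5 and counted per gene with featureCounts 1.5.0-p3. The counting strand and gene set are not given in the sources used here. All 52 members had the positions of GENCODE 29. The authors deposited raw whole-number counts for each gene and an FPKM value for each gene and library, and DESeq2 1.20.0 is also named in the notes.

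The counts were tested with edgeR 4.0.16 under R 4.3.3 (filterByExpr, TMM, quasi-likelihood test without a block, Benjamini-Hochberg over 15242 genes). This test gives no SE. The SE of a log2 fold change was derived as its absolute value divided by the square root of the test's F statistic. The study's methods use DESeq2, which was run as an alternative (1.42.0), with limma 3.58.1 for FPKM. The methods state the fold change threshold on a logarithm without its side, so 1.2 was read as a fold change and, alternatively, as a log2 value. The fits were checked on simulated counts. For 1 gene in 3 against 3 libraries, the smallest p of an exact permutation is 0.1. FPKM was used for levels between genes. Every tested member is named; values per library are given for called members that changed by 1 or more on the log2 scale or averaged 200 or more normalised read counts in the higher group, and the other lists are shown by the 4 largest changes each way among called genes averaging 20 or more in the higher group; genes named beyond this were chosen after their values were seen. Protein sequences were not used here. The members and lists were chosen with earlier results of these data known. The other alternatives were other scalings and filters, protein-coding genes only, the replicate number as a block, each library left out and other thresholds.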

Additional observations from a re-analysis of the deposited data

How the results depend on the processing

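With the replicate block, 6 members were called higher and 13 lower, as without it, and it changed no member's call and neither count of the other pathway genes (30 and 29) or targets (8 and 13). Deviations of same-numbered libraries correlated at -0.046 to 0.0074, so the numbers were not treated as pairs. When each library was left out in turn, 6 members were called higher in every fit and 12 to 13 lower. In 4 of these 6 fits the lower number includes LEF1, which passed the filter only through its parent libraries, in which it was high. The range is thus not that of the 13 genes called lower with all libraries. Of those, ROR1 and WNT2B both lost their calls without ADRr replicate 2 and without parent replicate 2. Without ADRr replicate 3, WNT5B was called in place of TCF7L2. LEF1, untested with all libraries, was among the lower calls without ADRr replicate 1, 2 or 3 or parent replicate 2 (-4.25 to -2.42) and with no filter (-2.98), while WNT2B, ROR1 or DKK1 dropped out. With the threshold set at 1.2 on the log2 scale, 2 members were higher (WNT9A and WNT4) and 2 lower (LRP5 and FZD6), with 8 and 7 of the other pathway genes and 3 and 7 of the target genes. With limma-trend on log2(FPKM + 1) and no filter, 3 members were higher, with the calls of WNT4 (0.21), TCF7L2 (0.24, adjusted p = 0.063) and FZD4 (0.26, adjusted p = 0.073) lost. ROR1 fell short of the fold change with DESeq2 (-0.26), DESeq2's size factors (-0.26), library totals alone (-0.24), protein-coding genes only (-0.25), at least 10 counts in every library (-0.25) and FPKM (-0.24 to -0.26), and DKK1 did so with library totals alone (-0.26). WNT2B was not called with DESeq2 (adjusted p = 0.071) or with no filter. On log2(FPKM + 1) with the filter, TCF7L2 (0.24) was short of the fold change as well. Among members not called, leaving out 1 library moved FZD3 from -0.18 to 0.013, FZD5 from -0.13 to 0.021 and FZD8 from -0.86 to 0.053, each turning sign without parent replicate 1. Without a filter, edgeR's prior degrees of freedom were infinite, against 17.8 with it, and LRP5 had an adjusted p of 3.8e-120, so p-values of that fit were not set beside the others. Over the 25 members and 17 settings, 370 values kept their direction and their side of the thresholds, 39 no longer passed, 1 newly passed and 3 turned sign. Members that a setting did not test are left out of these numbers. Among called members these were WNT4 at 10 counts in every library, and AXIN2, WNT2B and WNT4 on FPKM with the filter. The depth limits WNT4, WNT2B, FZD8 and LEF1, at under 30 counts per library, and the 27 untested members.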
